A study of Mus musculus with 12 samples.

Results

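The genes described here are 34 markers of macrophages, the phagocytic white blood cells that live in every tissue. Membership went by gene symbol: a probe set annotated to one of the 34 symbols belongs to the set. The brightest probe set stands for its gene, and Csf1r is shown on all of its probe sets. All 34 were measured, out of 18161 genes with a probe set of a single symbol, and 21 of them had 1 probe set. RNA came from the geniculate ganglion, where taste neurons have their cell bodies, of mouse embryos at embryonic day 14.5. The 12 Affymetrix arrays formed 4 groups of 3 biological replicates: embryos without BDNF and their BDNF wild type, both on the C57BL/6J background, and embryos without NT4 and their NT4 wild type, both on the 129 background. The design asked whether loss of either neurotrophin alters gene expression in its own way. The sources used here do not give the deleted part of each gene, the number of embryos per sample or whether wild types were littermates. Since strain differs between the lines, line and strain cannot be told apart.

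Macrophages populate the embryo from the yolk sac and later the liver, and nearly all of them need the receptor encoded by Csf1r. They clear dying cells, among them neurons that die in developing ganglia, by binding exposed lipids and complement, engulfing the cell and digesting it in lysosomes. In mice, geniculate neurons depend on BDNF and NT4 for survival, and both factors act through the receptor encoded by Ntrk2.

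The values are the authors' linear intensities, in arbitrary units, and differences are given on the log2 scale with limma's standard error (SE). An adjusted p is corrected over 45037 probe sets by the Benjamini-Hochberg method, and a gene is said to rise or fall only where it is under 0.05. Array medians were 168 to 201, replicates correlated at r = 0.967 to 0.985 over log2 values, and arrays of different lines at 0.919 to 0.945. Bdnf has 2 probe sets, and they differed. One (1422168_a_at) read 25.2, 26.9 and 23.3 on the BDNF knockout arrays, against 243, 169 and 288 on the BDNF wild-type arrays. The other (1422169_a_at), the brighter over all arrays, read 320, 348 and 278 in the knockout, against 269, 243 and 273 in the wild type (0.27, SE 0.17, adjusted p = 0.867). Which of them lies in the deleted part is not known here, so only the first sets the BDNF labels apart. Ntf5, the gene for NT4, was dim in the NT4 line (36.2 to 42.3 in the knockout, 33.8 to 46.6 in the wild type), so it cannot check the NT4 labels. The ganglion's neuronal genes were bright on every array, with Tubb3, a neuronal tubulin, at 12707 to 15142. Log2 Xist minus the mean of 3 Y-linked genes was 8.09 on replicate 2 of the BDNF wild type and 7.92 on replicate 2 of the NT4 wild type, while the remaining 10 arrays lay between 2.79 and 5.09.

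Replicates varied more in the macrophage genes than in most genes. The brightest probe set of 33 of the 34 read above 20 on all 12 arrays, and the exception was Gpr34, which read 14.6 on 1 array. The files used here hold no detection call, so a low reading is not read as absence. The standard deviation of log2 values within a group had a median of 0.39 over the 34 genes, against 0.22 over all genes. It ran between 0.18 for Stab1 and 1.05 for Ptprc.

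No macrophage gene passed the threshold in either knockout, although most readings leaned upwards and Csf1r was higher in both. In the BDNF knockout 27 of the 34 were above their wild type and 7 below (all genes: 44.6% above), and the median difference was 0.16, against −0.02 over all genes. In limma's test 0 of 34 rose or fell, where 0.022% of all genes passed. At an unadjusted p under 0.05 1 macrophage gene was higher, Csf1r, and 0 were lower (all genes: 2.16% higher and 3.93% lower). Csf1r, Ptprc and Laptm5 read higher on each knockout array than on any wild-type array, a pattern that 4.19% of all genes showed. In the NT4 knockout 29 were above and 5 below (all genes: 55.7% above), with a median of 0.30 (all genes 0.03), and again 0 of 34 passed in limma's test, where 0.00551% of all genes did. There, at an unadjusted p under 0.05, 8 were higher and 0 lower (all genes: 3.09% higher and 1.54% lower): Csf1r, Tyrobp, Ly86, Cd53, C1qb, Ctss, Aif1 and Fcer1g. Knockout and wild-type arrays did not overlap for 7 of the 34, against 6.72% of all genes, namely Csf1r, Tyrobp, Ly86, Cd53, C1qa, C1qb and Lyz2. In whole ganglia more macrophages and more RNA per macrophage cannot be told apart.

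These counts moved with single arrays and with scaling. The 8 genes of the NT4 knockout became 5 when NT4 knockout replicate 2, or the first NT4 wild-type array, was left out. They became 6 without replicate 2 of both wild types, 9 without NT4 wild-type replicate 3 and 11 without NT4 knockout replicate 3. The single gene of the BDNF knockout became 4 without BDNF knockout replicate 3, 3 without NT4 knockout replicate 3, and 2 without the second array of either knockout or the first or the third of the BDNF wild type. A fit of only the BDNF arrays gave 3, and one with a trended prior 2. Without the second array of the BDNF wild type 20 of the 34 were above 0, and 3 were lower at an unadjusted p under 0.05. Centring each array on its median moved the median of all genes in the NT4 knockout to −0.09, and there 23 of the 34 macrophage genes were above 0, with a median of 0.19.

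Among lineage and growth factor genes, Csf1r stood apart because 2 of its probe sets separated all 6 knockout arrays from all 6 wild-type arrays. Csf1r encodes the receptor for the growth factors CSF1 and interleukin 34. On its brightest probe set (1419872_at) it read 647, 966 and 849 in the BDNF knockout, against 185, 457 and 352 in the BDNF wild type. In the NT4 line it read 1089, 1345 and 779 in the knockout, against 285, 449.6 and 527 in the wild type. The lowest knockout reading of either line thus lay above the highest wild-type reading of both. The difference was 1.38 in the BDNF knockout (SE 0.35, adjusted p = 0.428), a fold of 2.61, and 1.36 in the NT4 knockout (SE 0.35, adjusted p = 0.796), a fold of 2.57. The 2 effects differed by −0.03, with a 95% interval of −1.13 to 1.08.

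The probe set 1419873_s_at gave the same picture at lower readings. It read 293, 345 and 399 in the BDNF knockout, against 128, 216 and 195 in the BDNF wild type. In the NT4 line it read 339, 441 and 303 in the knockout, against 139, 205 and 168 in the wild type. Again every knockout array was above every wild-type array, by 0.97 in the BDNF line (SE 0.23, adjusted p = 0.379) and 1.08 in the NT4 line (SE 0.23, adjusted p = 0.594). Averaged over both lines the difference was 1.02 (SE 0.16, adjusted p = 0.354) on this probe set and 1.37 (SE 0.25, adjusted p = 0.406) on the brightest, in limma's test of the mean of both knockout effects, a comparison added after the values had been seen. In that test 0 of the 34 genes passed (0.00551% of all genes), while 7 were higher at an unadjusted p under 0.05 (all genes: 2.98%): Csf1r, Tyrobp, Cd53, Ly86, Ptprc, C1qb and Ctss.

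The third Csf1r probe set went another way. 1423593_a_at read 208, 199 and 233 in the BDNF knockout, against 222, 223 and 216 in the BDNF wild type, a difference of −0.05 (SE 0.16). It read 100.5, 95.7 and 64.2 in the NT4 knockout, against 67.3, 63.4 and 71.2 in the NT4 wild type, a difference of 0.34 (SE 0.16). This probe set separated the lines in place of the genotypes: it was lower in the NT4 wild type than in the BDNF wild type by −1.71 (SE 0.16, adjusted p = 3.38e-05), where the others differed by 0.39 (SE 0.35) and −0.06 (SE 0.23). Which part of the transcript each probe set reads was not analysed here.

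**Figure D1:**
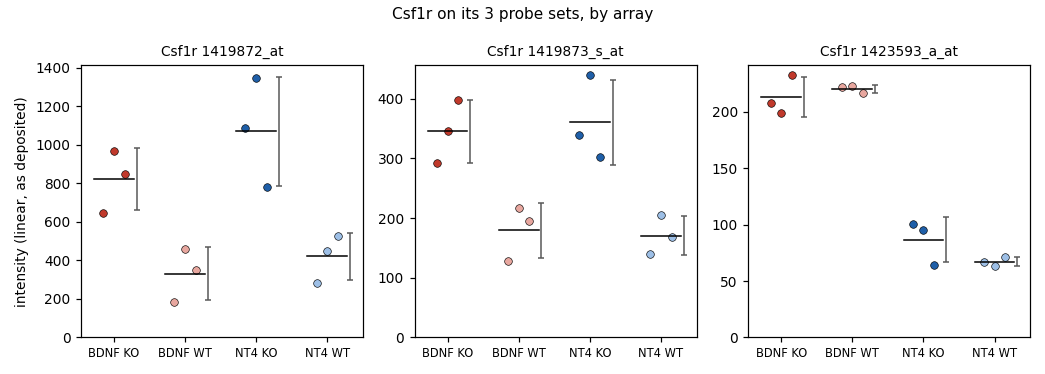
Linear intensity of the 3 Csf1r probe sets on the 12 arrays, by group (knockout left of its wild type), where points are arrays, short lines are group means and bars are SDs (n = 3). On 1419872_at and 1419873_s_at all knockout arrays lie above all wild-type arrays, and 1423593_a_at splits by line.

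The other lineage genes overlapped more. Aif1, the actin-binding protein known as IBA1, read 362, 370.5 and 265 in the NT4 knockout, against 139.8, 171 and 322 in the NT4 wild type (0.74, SE 0.32, adjusted p = 0.879). NT4 wild-type replicate 3 lay inside the knockout's range. In the BDNF line Aif1 differed by 0.07 (SE 0.32). Ptprc, which encodes CD45, a phosphatase on the surface of nearly all white blood cells, read 322, 166 and 91.1 in the BDNF knockout, against 44.1, 50.8 and 82.6 in the BDNF wild type (1.57, SE 0.76, adjusted p = 0.780). In the NT4 line it read 93.3, 45.0 and 412 in the knockout, against 28.6, 67.7 and 84.2 in the wild type (1.14, SE 0.76, adjusted p = 0.931). The high readings fell on different arrays for Ptprc than for Csf1r, and its second probe set, at 17.6 to 30.3, differed by 0.09 and −0.08. Irf8, a transcription factor of myeloid cells, differed by 0.47 and 0.41. The first value rests on BDNF knockout replicate 3 at 259, against 51.3 and 55.3 on the other knockout arrays. The dimmer Irf8 probe set differed by 0.44 and 0.38 (SE 0.31 each). It read 47.55, 91.07 and 46.45 in the BDNF knockout, without a high replicate 3. Cx3cr1, the receptor for the neuronal chemokine fractalkine, was the only lineage gene below its wild type in both lines, at −0.26 (SE 0.21) and −0.12 (SE 0.21), neither of which passed. Its dimmer probe set differed by 0.05 and 0.35 (SE 0.19 each).

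For the complement genes, which encode the chains of C1q, the protein that tags targets for engulfment, the C1qb readings in the NT4 line were the clearest. C1qb (1437726_x_at) read 1069, 1296 and 630.5 in the NT4 knockout, against 438, 434 and 617 in the NT4 wild type (0.97, SE 0.32, adjusted p = 0.852). Its other probe sets differed by 0.66 and 0.64. On 1437726_x_at the groups stayed apart, but knockout replicate 3 and wild-type replicate 3 nearly met. On 1434366_x_at the groups overlapped, with knockout replicate 3 at 520 and wild-type replicate 3 at 579. C1qa read 128, 118 and 75.2 in the NT4 knockout, against 65.7, 67.5 and 65.7 in the NT4 wild type (0.66, SE 0.32, adjusted p = 0.895). C1qc read 202, 219 and 170.2 in the knockout, against 104, 213 and 245 in the wild type (0.16, SE 0.41). In the BDNF line none of the C1q genes separated: C1qb read 818, 541 and 522 in the knockout, against 407, 795 and 517 in the wild type, and the differences were 0.16 for C1qb, 0.25 for C1qa and 0.16 for C1qc. The C1q genes are direct neighbours on chromosome 4, in the order C1qb, C1qc and C1qa, so they share a locus.

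Among the Fc receptors and their adaptors, Tyrobp showed the widest gap. Tyrobp encodes the adaptor that passes on signals from TREM2 and other receptors without signalling parts of their own. It read 1360.5, 1320.4 and 859 in the NT4 knockout, against 406, 524 and 557 in the NT4 wild type, a difference of 1.24 (SE 0.27, adjusted p = 0.596) and a fold of 2.35. In the BDNF line it read 1209, 1233 and 768 in the knockout, against 939, 552 and 799.9 in the wild type (0.49, SE 0.27, adjusted p = 0.829). The NT4 groups stood apart and the BDNF groups overlapped, yet the test of the difference between the 2 effects gave 0.75 (SE 0.38, adjusted p = 0.863). Fcer1g, the signalling chain shared by Fc receptors, read 267, 248 and 186 in the NT4 knockout, against 132, 151 and 212 in the NT4 wild type (0.51, SE 0.23, adjusted p = 0.885), and differed by 0.08 in the BDNF line. Trem2, the lipid-sensing partner of the Tyrobp product, differed by 0.29 in the NT4 line and 0.14 in the BDNF line (SE 0.15 each). The dimmer Trem2 probe set differed by 0.04 in the NT4 line and −0.33 in the BDNF line (SE 0.20 each). The receptors for antibodies lay closer to 0: Fcgr1 at 0.02 and 0.00, Fcgr3 at 0.24 and 0.46 and the inhibitory Fcgr2b at −0.04 and 0.17 in the NT4 and BDNF knockouts. Fcrls, a relative of the Fc receptors known as a microglial marker in mice, differed by 0.62 and 0.33 (SE 0.51 each), with readings from 136 to 559. Fcgr2b, Fcgr3 and Fcer1g lie close together on chromosome 1, with 1 and 7 protein-coding genes between them.

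The scavenger and uptake receptors, several of which mark resident macrophages of connective tissue, lay close to their wild types by median, with members on both sides of 0. Of the 6, 0 had an unadjusted p under 0.05 in either knockout and the medians were 0.08 in the BDNF and 0.09 in the NT4 knockout. Mrc1, the mannose receptor, differed by 0.45 and 0.31 (SE 0.72 each) and varied among replicates, at 304, 85.6 and 88.7 in the NT4 knockout, against 105, 49.4 and 232 in the NT4 wild type. Cd163, which takes up haemoglobin, differed by 0.27 and 0.22. Stab1, a scavenger receptor that sinusoidal endothelium also carries, differed by 0.13 and 0.06 (SE 0.15 each), which limits any difference to between −0.28 and 0.47. Lyve1, a hyaluronan receptor shared with lymphatic vessels, differed by −0.36 and 0.02, the scavenger receptor gene Msr1 by 0.04 and 0.11, and Cd14, a sensor of bacterial lipopolysaccharide, by −0.33 and −0.04. In each of these pairs the BDNF knockout is first. A dimmer Msr1 probe set (1425435_at) read 64.1, 39.9 and 54.4 in the NT4 knockout, against 44.7, 20.9 and 28.9 in the NT4 wild type (0.79, SE 0.27, adjusted p = 0.852), with overlap.

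Of the 5 lysosomal genes, 4 were above 0 in NT4 knockouts and 2 in BDNF knockouts (all genes: 55.7% and 44.6%), with medians of 0.57 and −0.17. Ctss, the protease cathepsin S, read 738, 727 and 449.6 in the NT4 knockout, against 269, 372 and 459 in the NT4 wild type (0.80, SE 0.28, adjusted p = 0.852), and differed by 0.16 in the BDNF line. Lyz2, the lysozyme of myeloid cells, read 160.3, 369.5 and 161 in the NT4 knockout, against 131, 114 and 159 in the NT4 wild type (0.67, SE 0.34, adjusted p = 0.900). Its groups did not overlap, but the gap between the lowest knockout and the highest wild-type reading was small, and the mean rests on knockout replicate 2. Laptm5, a lysosomal membrane protein of blood cells, read 2076, 2189 and 1956 in the BDNF knockout, against 1944, 1877 and 1362 in the BDNF wild type (0.28, SE 0.28). That separation was also narrow, and in the NT4 line Laptm5 overlapped at 0.57 (SE 0.28). Its probe sets disagreed, since 1417721_s_at differed by −0.41 and −0.17 in the BDNF and NT4 knockouts. Cd68, a lysosomal glycoprotein widely used to stain macrophages, differed by −0.44 (SE 0.25) in the BDNF and 0.07 in the NT4 knockout, and Lgmn, the protease legumain, by −0.30 and −0.29 (SE 0.26 each).

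Of the remaining membrane and secreted products, Ly86 and Cd53 were the members with the larger gaps. Ly86, which encodes MD-1, the partner of a receptor related to the Toll-like receptors, read 92.1, 134 and 106 in the NT4 knockout, against 36.0, 51.9 and 31.2 in the NT4 wild type (1.50, SE 0.33, adjusted p = 0.667). In the BDNF line it read 107, 138 and 65.7 in the knockout, against 93.3, 59.7 and 124 in the wild type (0.16, SE 0.33). The NT4 wild type was the group that stood apart, since the NT4 knockout read within the range of the BDNF line. Ly86 was also the only member with an unadjusted p under 0.05 for the difference of the 2 effects (1.34, SE 0.47, adjusted p = 0.798), where 3.55% of all genes were higher at that level and 0 of the 34 passed (0.00551% of all genes). Cd53, a tetraspanin of white blood cells, read 1189.5, 818 and 755 in the NT4 knockout, against 356, 365 and 622 in the NT4 wild type (1.06, SE 0.26, adjusted p = 0.796). In the BDNF line it read 837, 617 and 1011 in the knockout, against 711, 584 and 701 in the wild type (0.28, SE 0.26).

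The other members of that kind did not separate. Pf4, platelet factor 4, a chemokine that megakaryocytes also make, read 988, 271 and 185 in the BDNF knockout, against 206, 117 and 243 in the BDNF wild type (1.03, SE 0.59), and a single array carried the difference. Gpr34, a receptor for lysophosphatidylserine, differed by 1.02 (SE 0.52) in the BDNF and 0.26 in the NT4 knockout, at readings of 14.6 to 82.2. P2ry12, an ADP receptor of microglia and platelets, differed by 0.24 and −0.19, and Cd83, a surface protein best known from dendritic cells, by −0.43 and 0.38. F13a1, the catalytic chain of clotting factor XIII, differed by 0.19 and 0.41 (SE 0.52 each), with 1 high array in each knockout, at 731 and 722. Ms4a7, a membrane protein of the MS4A family, differed by 0.36 and 0.24 (SE 0.25 each). F13a1 and Ly86 are neighbours on chromosome 13, with no protein-coding gene between them, but read differently.

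**Figure D2:**
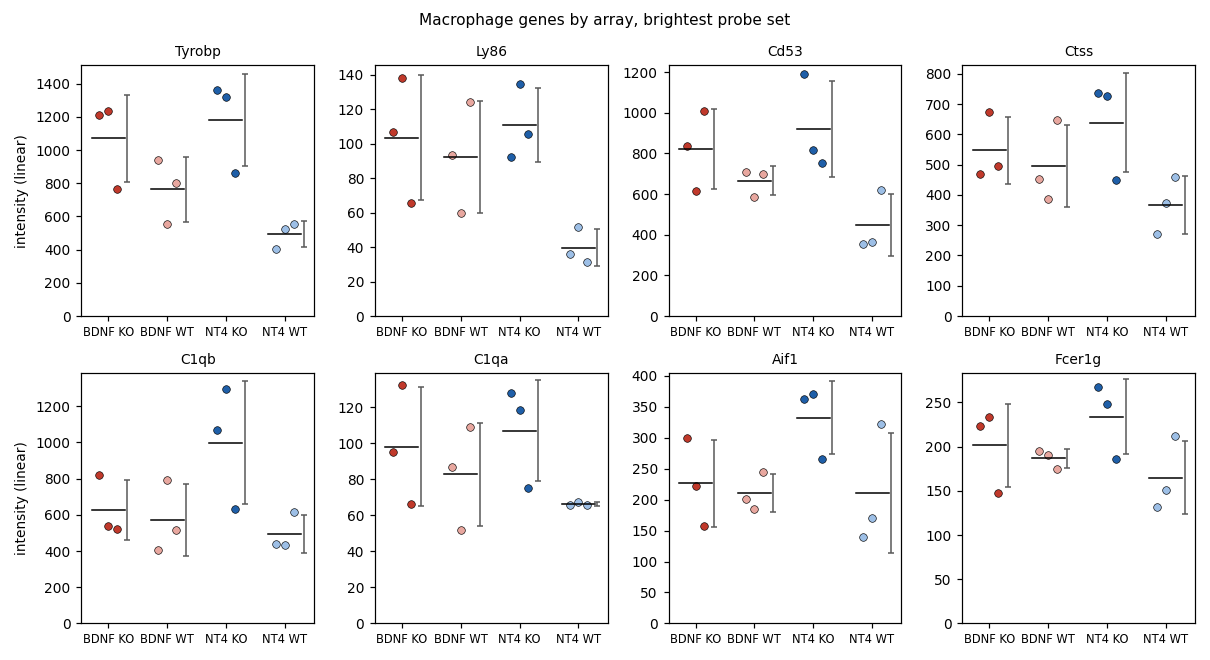
Linear intensity of Tyrobp, Ly86, Cd53, Ctss, C1qb, C1qa, Aif1 and Fcer1g by group, where points are arrays, lines are means and bars are SDs (n = 3). In the NT4 line Tyrobp, Ly86, Cd53, C1qb and C1qa show no overlap between knockout and wild type. In Ctss, Aif1 and Fcer1g the third NT4 wild-type array lies inside the knockout range.

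**Figure D3:**
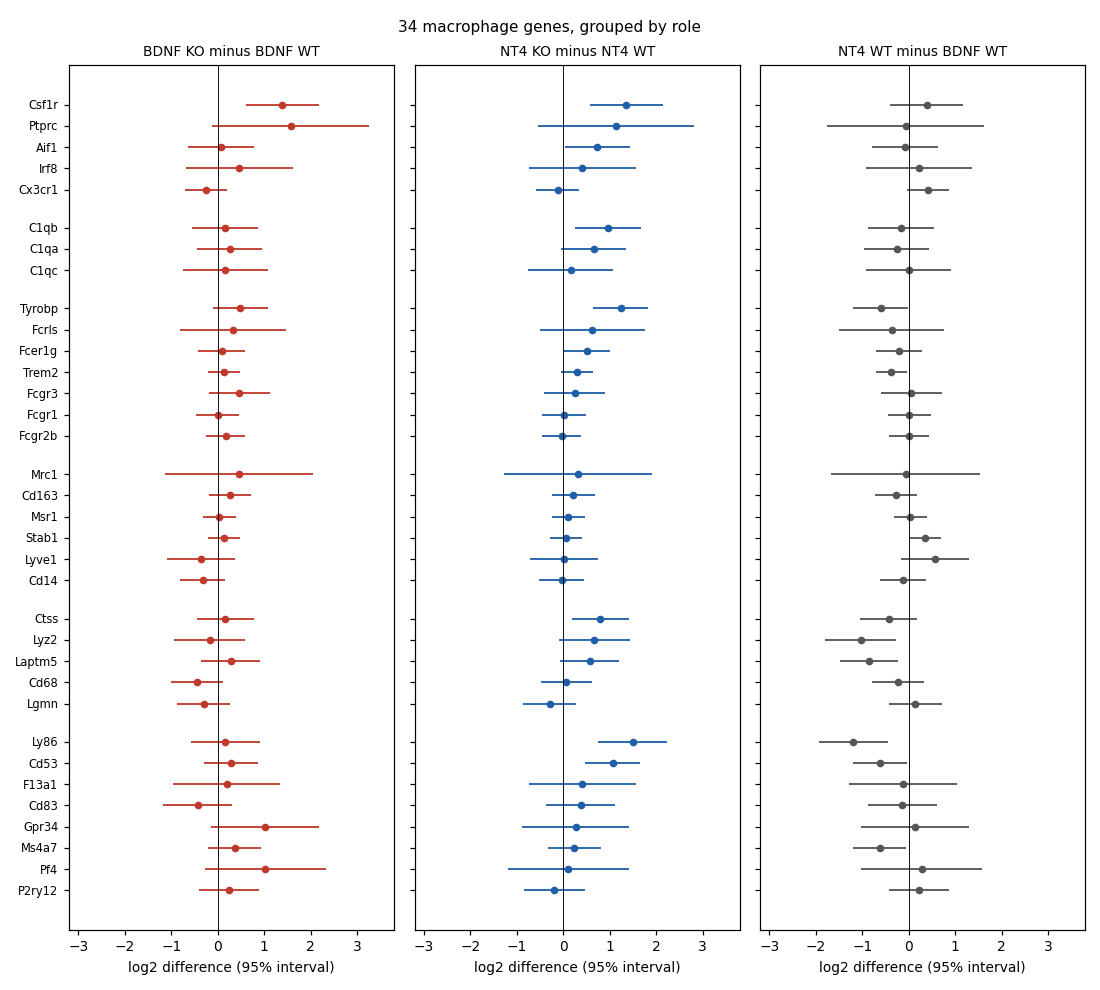
Log2 difference of each of the 34 genes in the BDNF knockout, the NT4 knockout and the NT4 wild type minus the BDNF wild type, grouped by role, with bars for limma's 95% interval. Most points of both knockouts lie above 0, most intervals cross 0, and Csf1r is the gene whose interval lies above 0 in both knockouts.

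Promoters of the genes with an unadjusted p under 0.05 in the NT4 knockout were looked up in RefSeq's table of assembly GRCm38.p6, which gives 250 bases before and 50 after a gene's start. It matched 26 of the 34 genes by symbol, and Csf1r and Tyrobp were among the 8 that it did not match. The motif GAGGAA is the purine-rich core bound by PU.1, the factor that specifies macrophages, encoded by Spi1. Read on both strands it was in the windows of 17 of these 26 genes (65.4%), against 31.3% of 27025 genes. TATAAA, the box bound by the TATA-binding protein, was in 6 of 26 (23.1%), against 15.7%. Cd53, C1qb, Ctss and Aif1 are shown since their NT4 values are among those above and their windows hold GAGGAA. Capitals mark GAGGAA or its reverse complement TTCCTC, and sequences run along the gene's strand.
Cd53, chr3:106790100-106790399, minus strand: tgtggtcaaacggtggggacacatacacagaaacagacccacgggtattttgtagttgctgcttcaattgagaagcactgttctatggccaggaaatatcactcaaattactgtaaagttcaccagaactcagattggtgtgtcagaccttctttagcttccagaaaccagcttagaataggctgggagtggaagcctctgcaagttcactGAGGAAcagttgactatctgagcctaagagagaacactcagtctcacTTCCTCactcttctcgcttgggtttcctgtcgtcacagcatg
C1qb, chr4:136886151-136886450, minus strand: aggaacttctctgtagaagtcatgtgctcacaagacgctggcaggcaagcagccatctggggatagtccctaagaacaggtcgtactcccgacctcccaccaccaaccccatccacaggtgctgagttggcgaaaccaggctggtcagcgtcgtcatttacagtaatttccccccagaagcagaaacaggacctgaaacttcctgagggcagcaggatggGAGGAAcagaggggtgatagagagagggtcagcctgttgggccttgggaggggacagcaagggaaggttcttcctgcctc
Ctss, chr3:95526536-95526835, plus strand: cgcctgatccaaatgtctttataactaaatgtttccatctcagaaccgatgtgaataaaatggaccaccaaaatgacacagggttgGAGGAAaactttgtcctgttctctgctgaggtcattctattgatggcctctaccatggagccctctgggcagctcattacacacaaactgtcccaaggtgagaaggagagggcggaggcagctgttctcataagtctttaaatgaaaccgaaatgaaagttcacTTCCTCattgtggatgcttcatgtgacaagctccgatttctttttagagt
Aif1, chr17:35176003-35176302, minus strand: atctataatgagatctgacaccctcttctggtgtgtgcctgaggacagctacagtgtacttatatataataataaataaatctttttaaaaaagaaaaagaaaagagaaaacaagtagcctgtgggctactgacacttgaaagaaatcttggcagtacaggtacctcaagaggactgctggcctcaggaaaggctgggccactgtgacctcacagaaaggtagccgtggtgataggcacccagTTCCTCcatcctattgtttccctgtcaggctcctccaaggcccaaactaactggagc
The motif began at −39 and +9 from the start for Cd53, −30 for C1qb, −164 and +1 for Ctss and −7 for Aif1. The windows of Ly86 and Fcer1g do not hold these letters. A match in a window is a description and not a binding site.

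The wild types differed from each other in few macrophage genes. In the NT4 wild type 20 of the 34 were lower and 14 higher (all genes: 58.3% lower). The Csf1r probe set that passed here, 1423593_a_at, is given above and is not its brightest. Ly86 fell by 1.19 in the NT4 wild type (SE 0.33, adjusted p = 0.0379), at 36.0, 51.9 and 31.2, against 93.3, 59.7 and 124 in the BDNF wild type. By brightest probe set it was the only one of 34 to pass, lower in 3 of 3 arrays. At the threshold 7.86% of all genes were lower and 5.74% higher. The call was lost in a fit of the 6 wild-type arrays alone (adjusted p = 0.0643) and without NT4 wild-type replicate 1 (0.112) or 3 (0.135), the first (0.100) or the third (0.130) array of the BDNF wild type, the first of the BDNF knockout (0.0517) or the third of the NT4 knockout (0.0530). At an unadjusted p under 0.05 7 were lower and 1 higher, against 15.2% and 9.72% of all genes. Lyz2 read 131, 114 and 159 in the NT4 wild type, against 272, 241 and 307 in the BDNF wild type (−1.03, SE 0.34, adjusted p = 0.0809). Laptm5 read 858, 646 and 1528 in the NT4 wild type, against 1944, 1877 and 1362 in the BDNF wild type (−0.85, SE 0.28, adjusted p = 0.0802). Lyz2 did not overlap between the wild types, while Laptm5 did through NT4 wild-type replicate 3, and it passed without that array (adjusted p = 0.00590). Cd53 passed without that array too (0.0497), and Lyz2 without NT4 knockout replicate 2 (0.0231). The others were Ms4a7 (−0.62), Trem2 (−0.37), Cd53 (−0.62) and Tyrobp (−0.60) on the lower side and Stab1 (0.35) on the higher. The wild types did not overlap for 3 genes that were lower (Lyz2, Ly86 and Ms4a7) and 2 that were higher (Cx3cr1 and Stab1), against 22.2% and 13.2% of all genes. The NT4 wild type enters both this comparison and the one with the NT4 knockout, so Ly86, Tyrobp, Cd53 and Lyz2 share their low arrays between them.

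Single arrays weighed on these results. Taking each gene's log2 deviation from its mean over 12 arrays, the average over the 34 was 0.23, 0.19 and 0.02 on the BDNF knockout arrays, against −0.07, −0.27 and 0.05 on the BDNF wild-type arrays. It was 0.33, 0.28 and −0.05 on the NT4 knockout arrays, against −0.40, −0.35 and 0.03 on the NT4 wild-type arrays. These are means over genes that went both ways on some arrays. On NT4 knockout replicate 3 the lineage genes averaged 0.67, the lysosomal genes −0.31 and the remaining membrane and secreted products −0.39. That lineage mean rests largely on Ptprc, which read 412 there, against 93.3 and 45.0 on the other NT4 knockout arrays. On BDNF knockout replicate 3 the lineage genes averaged 0.34 and the complement genes −0.35. There the lineage mean rests mostly on the brightest Irf8 probe set, at 259, while the dimmer Irf8 probe set read 46.45. NT4 wild-type replicates 1 and 2 were the lowest of the 12 arrays for 8 and 7 genes, and NT4 wild-type replicate 3 was the highest of its group for 24 of 34. NT4 knockout replicate 3 was the highest of its group for 5. The summed intensity of the 34 genes was 10178 to 11893 in the BDNF knockout and 8717 to 9722 in the BDNF wild type. It was 9360 to 13196 in the NT4 knockout and 6803 to 9731 in the NT4 wild type, where the groups overlapped through replicate 3.

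Other genes of macrophage biology were examined in 6 lists. Their counts above 0 stand beside 44.6% of all genes in the BDNF and 55.7% in the NT4 knockout, and those higher at an unadjusted p under 0.05 beside 2.16% and 3.09%. In both knockouts limma called 0 members of any list, where 0.022% of all genes passed in the BDNF and 0.00551% in the NT4 knockout. Genes for growth factors and chemokines were above 0 for 3 of 12 in the BDNF (median −0.09; at an unadjusted p under 0.05, 1 higher and 1 lower) and 8 of 12 in the NT4 knockout (median 0.24, 1 higher and 1 lower). Among them were Ccl12 (0.67 and 0.07), Ccl7 (−0.31 and −0.35) and Ccl4 (−0.30 and −0.02), which encode chemokines, and Csf2 (−0.10 and 0.32), a growth factor, where the BDNF knockout comes before the NT4 knockout. Both ligands of the Csf1r product were read: Csf1 differed by −0.07 and −0.28 (SE 0.42 each), and Il34 by −0.29 and 0.30 (SE 0.22 each). Other receptors were above 0 for 11 of 23 in the BDNF (median −0.05; at an unadjusted p under 0.05, 1 higher and 0 lower) and 16 of 23 in the NT4 knockout (median 0.10, 3 higher and 1 lower). Ccr2, a chemokine receptor of monocytes, read 69.9, 89.7 and 73.4 in the BDNF knockout, against 50.4, 22.9 and 44.1 in the BDNF wild type (1.06, SE 0.31), and was dim in the NT4 line, at 7.17 to 16.4. Cd84 differed by 0.26 and 0.61, Tlr2, a Toll-like receptor, by 0.02 and −0.44, and Vsig4, a complement receptor, by 0.06 and 0.48. The F4/80 gene Adgre1 read 307, 266 and 103 in the BDNF knockout, against 162, 146 and 166 in the BDNF wild type (0.37, SE 0.44). In the NT4 line it read 296, 280 and 120.3 in the knockout, against 118, 90.1 and 152 in the wild type (0.87, SE 0.44), and replicate 3 lay across the groups in both lines.

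Of the complement genes other than C1q, 7 of 9 were above 0 in the BDNF (median 0.24; at an unadjusted p under 0.05, 1 higher and 0 lower) and 8 of 9 in the NT4 knockout (median 0.29, 2 higher and 0 lower). C3ar1, the receptor for the C3a fragment, read 254, 328 and 207 in the NT4 knockout, against 175, 141 and 185 in the NT4 wild type (0.64, SE 0.21), and differed by 0.24 in the BDNF line. The C1-associated protease C1s1 differed by 0.34 and 0.80, its inhibitor Serping1 by 0.45 and 0.29, and C2 by 0.04 and 0.35. Of 18 genes for engulfment of dying cells, 13 were above 0 in each knockout (medians 0.10 and 0.14, and at an unadjusted p under 0.05, 2 and 1 higher and 0 lower). Mertk, a receptor that recognises dying cells through bridging proteins, read 719, 354 and 422 in the BDNF knockout, against 258, 224 and 276 in the BDNF wild type (0.92, SE 0.31). It did not overlap there, and in the NT4 line it differed by 0.56 (SE 0.31) with overlap. The lipid exporter Abca1 differed by 0.63 and 0.31, the lipid carrier Apoe by −0.01 and 0.32, and the engulfment receptor Megf10 by 0.35 and 0.17. Transcription factors were above 0 for 4 of 11 in the BDNF (median −0.09) and 8 of 11 in the NT4 knockout (median 0.17), with 0 at an unadjusted p under 0.05. Spi1 read 73.4 to 115.5 in the BDNF knockout and 89.7 to 109.4 in the BDNF wild type, and 86.6 to 111.0 in the NT4 knockout and 86.2 to 98.98 in the NT4 wild type. Fli1 differed by 0.97 and 0.21, Ikzf1 by 0.19 and 0.21, Nr1h3 by −0.19 and 0.25 and Runx1 by −0.21 and 0.36. Of 14 lysosomal genes 9 and 10 were above 0 (medians 0.05 and 0.06), with 0 at an unadjusted p under 0.05 (Ctsc 0.61 and 0.23, Man2b1 0.16 and 0.40, Lipa 0.12 and −0.17).

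Between the wild types these lists held calls, named here after their values had been seen, in a comparison where 13.6% of all genes passed. In the NT4 wild type Slc11a1, a metal transporter of phagosomes, rose by 3.11 (SE 0.36, adjusted p = 0.000138), at 295 ± 43.6, against 37.8 ± 22.5 in the BDNF wild type (SD, n = 3 each). Gpnmb (3.05), Itgam, an integrin chain of the complement receptor CR3 (2.59), Csf3r (1.58), Timd4 (1.57), Ccl4 (1.50), Siglech (1.18), Csf3 (0.88) and Apoe (0.49) rose as well. Gas6, the protein that bridges dying cells to the Mertk product, fell by 2.04 in the NT4 wild type (SE 0.11, adjusted p = 7.36e-07), at 300.5 ± 7.90, against 1235 ± 102 in the BDNF wild type (SD, n = 3 each). Itgb3 (−1.80), Ccr2 (−1.49), Tlr7 (−1.25), Dock1 (−0.59) and Csf2rb (−0.44) fell as well. These genes changed in both directions, and each rests on its brightest probe set.

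Markers of other cells were read beside these results, since ganglia are dissected with the tissue around them. The lists were measured in sums of intensity per array, and no probe set of any list read 0 on an array. Counts above 0 are again to be read beside 44.6% of all genes in the BDNF and 55.7% in the NT4 knockout. Of the cartilage list 12 of 12 were above 0 in the NT4 knockout (median 0.55; Snorc 0.52, Sox9 0.69), with sums of 13218 to 26282 in the knockout and 11250 to 14268 in the wild type. In the BDNF knockout 9 of 12 were (median 0.18), with sums of 16371 to 36183 in the knockout and 16166 to 24341 in the wild type. All 10 mesenchyme genes were above 0 in both knockouts, with medians of 0.17 in the BDNF and 0.30 in the NT4 knockout (Pdgfrb 0.47 and 0.38). Sums were 27515 to 37919 in the BDNF knockout and 26302 to 29696 in the BDNF wild type, and 27038 to 37141 in the NT4 knockout and 20317 to 35903 in the NT4 wild type. Mesenchyme genes averaged −0.48, −0.62 and 0.47 on the NT4 wild-type arrays, where replicate 3 stood apart. Cartilage genes averaged −0.74, −0.54 and −0.54 there, low on all of them.

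Endothelial genes were above 0 for 5 of 10 in the BDNF (Flt1 0.98) and 9 of 10 in the NT4 knockout (median 0.12; Esam 0.61). Their sums were 3097 to 5005 in the BDNF knockout, 3442 to 4503 in the BDNF wild type, 2542 to 3504 in the NT4 knockout and 2373 to 3807 in the NT4 wild type. Endothelial genes averaged −0.34, −0.47 and 0.16 on the NT4 wild-type arrays, against 0.03, −0.06 and −0.26 on the NT4 knockout arrays. Markers of monocytes and neutrophils, which share a lineage with macrophages, were above 0 for 6 of 9 in the BDNF knockout (median 0.17). In the NT4 knockout 8 of 9 were (median 0.23). They summed to 718 to 2822 in the BDNF knockout and 733 to 1031 in the BDNF wild type. In the NT4 line they summed to 1021 to 1326 in the knockout and 838 to 917 in the wild type, without overlap. They averaged −0.34, −0.36 and −0.11 on the NT4 wild-type arrays. Their high array was BDNF knockout replicate 1, also the high array of Ptprc and Pf4, where S100a9 read 979, against 83.6 to 203 in the BDNF wild type. Inner ear genes were above 0 for 6 of 7 in the NT4 knockout (median 0.36), with sums of 872 to 1196 in the knockout and 705 to 836 in the wild type. Mast cell genes were above 0 for 6 of 8 (median 0.23), red cell genes for 5 of 9 (0.04), lymphocyte genes for 7 of 10 (0.06), glial genes for 5 of 8 (0.06), muscle genes for 6 of 10 (0.06) and neuronal genes for 3 of 10 (−0.04) in the NT4 knockout. In the BDNF knockout the medians of these lists were 0.10 for inner ear, 0.03 for mast cells, −0.06 for red cells, −0.14 for lymphocytes, 0.05 for glia, 0.03 for muscle and −0.05 for neurons. The part of cartilage, mesenchyme, endothelial and monocyte tissue in the macrophage readings was not tested.

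**Figure D4:**
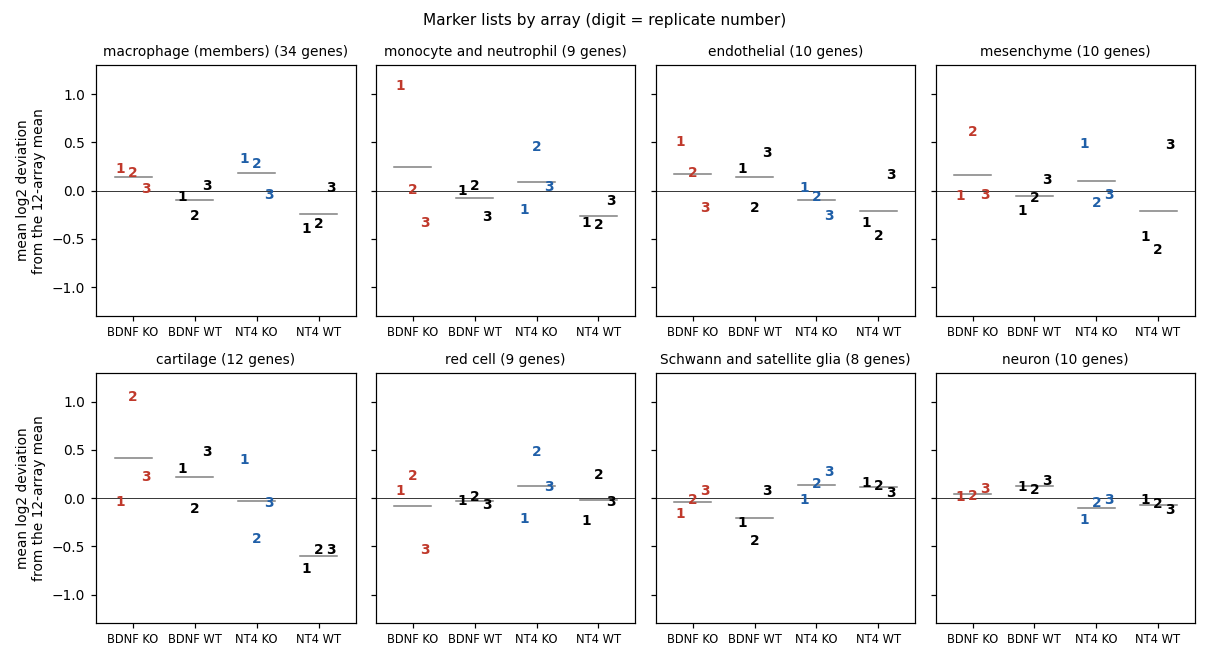
Mean log2 deviation per array, from each gene's mean over the 12 arrays, of the macrophage genes and of lists of other cells, by group (knockout left of its wild type), where digits are replicate numbers. Macrophage, mesenchyme, endothelial, cartilage and monocyte genes are low on NT4 wild-type replicates 1 and 2, and the monocyte list is high on BDNF knockout replicate 1.

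The authors' deposited tables of chosen probe sets hold some of these genes, which make up 0.127% of all probe sets tested. Of 667 listed for BDNF 2 belonged to a macrophage gene, both to Csf1r (0.300%), with folds of 2.48 and 1.92 in the authors' deposited table. Of those listed for NT4 5 did (0.744%), from 4 genes. In the authors' deposited table their folds were 2.55 and 2.11 for Csf1r, 2.79 for Ly86, 2.38 for Tyrobp and 1.57 for C1qb (1417063_at). These lists were made from the same 12 arrays, so they are not independent of the values above.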

How the data were processed

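Per the labels' protocols, total RNA was prepared with a column kit and DNase I, amplified with WT-Ovation Pico, labelled with biotin and hybridised to 12 arrays. The authors deposited linear intensities, 45101 probe sets per array; their background correction and scaling are not given in the sources used here. Per the file headers, the authors' deposited lists give mean intensities, a signed fold change (used as a score) and a p-value. Values were taken as log2 without offset from the deposited intensities, and 64 control probe sets were left out. limma 3.58.1 in R 4.3.3 fitted group means over all 12 arrays, with 8 residual degrees of freedom; the median SE of a knockout comparison was 0.20. The number of arrays limits the precision, and an exact permutation test of 3 against 3 cannot go below 0.1. GEO's platform annotation, which can be old, named 34945 probe sets with 1 symbol, 932 with several and 9160 with none; 34943 matched RefSeq's gene table. All members were described. Values per array were given for Csf1r, Tyrobp, the C1q genes and members with an unadjusted p under 0.05 or no overlap in a knockout comparison. Some other members had them too, while members that met this rule only between the wild types did not all have them. Other lists gave up to 4 genes by lowest p. Of 205 listed genes 188 were measured and the rest were not analysed here. The fit was checked on simulated data. Members and lists were chosen with earlier results of these data known. P-values set a difference between groups against the spread between arrays of a group, and the number of embryos behind each array is not known. Alternatives were quantile normalization, centring, an offset of 16 and a filter on dim probe sets. The filter kept probe sets whose mean log2 value lay above the median of all, 7.42. Further ones were only the arrays compared, a replicate block, a trended prior, means over probe sets, and leaving out arrays. Added after seeing the data were the mean of both knockout effects and leaving out replicate 2 of both wild types. On those arrays Xist was high relative to Y-linked genes.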

Additional observations from a re-analysis of the deposited data

How the results depend on the processing

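Single macrophage genes entered here only where limma's unadjusted p was under 0.05 as reported, counted once per probe set, comparison and alternative fit. Most were uncalled as reported, so holding the side mostly meant staying uncalled, and choosing by p makes reversals unlikely. In 550 of these counts direction and side of the threshold held, 8 lost a call, 5 gained one and 0 reversed. Those that gained one were between the wild types: Laptm5 with a trended prior (adjusted p = 0.0491) and without NT4 wild-type replicate 3, Lyz2 with only the wild-type arrays (0.0109) and without NT4 knockout replicate 2, and Cd53 without NT4 wild-type replicate 3. Over all probe sets, calls in the BDNF knockout were 8, and 5 with centring. They were 0 with only the arrays compared (2465 at an unadjusted p under 0.05) and 0 with a replicate block (2986). Without replicate 2 of both wild types they were 4. In the NT4 knockout they were 2, and 1 with centring, the filter on dim probe sets or a trended prior, all in limma's test. There they were 0 with only the arrays compared (2972), with the block (2496) and without replicate 2 of both wild types (1610). For the difference of effects they were 5, and 3 with centring or the filter. With the block they were 0 (2672), and without replicate 2 of both wild types 1. Between wild types they were 6275, and 2716 with the filter, which tests fewer probe sets. For the mean of both knockouts they were 4, and 1 with quantile normalization, 2 with centring and 0 with the block (2817). Without replicate 2 of both wild types they were 2. Leaving out 1 array each gave 4 to 10, 0 to 5, 1 to 4, 4909 to 6440 and 1 to 3 calls in that order. The median over the 34 genes ran 0.10 to 0.30 in the BDNF knockout, 0.25 to 0.44 in the NT4 knockout, 0.08 to 0.29 for the difference, −0.32 to 0.0041 between wild types and 0.22 to 0.41 for the mean. With the filter, which kept 18 of the 34, it was 0.54 in the NT4 knockout and 0.34 for the difference. It was lower with centring (0.19 in the NT4 knockout, 0.02 for the difference) and with quantile normalization (0.19 and 0.03), against 0.30 and 0.15 as reported. The 1 call between wild types (Ly86) became 0 with the block, 2 with a trended prior and 0 to 2 leaving out 1 array. With the filter there were 0 calls, but Ly86, at a mean log2 value of 6.29, was not kept and so not tested. Other comparisons stayed at 0 to 0. Same-numbered replicates did not pair, since their deviations correlated at −0.251 to 0.148; with the replicate block 5 macrophage genes were higher at an unadjusted p under 0.05 in the NT4 knockout and Ly86 between wild types had an adjusted p of 0.0661. The cause of these changes was not tested.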
